A study of Drosophila melanogaster with 9 samples.

Results

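The bithorax complex is the cluster of the Hox genes Ubx, abd-A and Abd-B on the right arm of the third chromosome of Drosophila melanogaster, and open chromatin across it was described here in Kc167 cells. Members were all peaks of the 9 deposited lists that overlapped the stretch from the Ubx gene to the Abd-B gene, with 10 kb added on each side (3R:16646623-16982236, dm6, 335.614 kb). There were 162 such peaks of 153300 in all. Peaks that overlapped between libraries were joined into 1 region, which gave 24 regions of 25579, of which 15 lay in the span of the 3 genes and 9 in the flanks. The regions are numbered from 1 to 24 along the chromosome.

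The assay was ATAC-seq, which inserts sequencing adapters into accessible DNA with the transposase Tn5. Kc167 is a female cell line of embryonic origin, and the comparisons address whether M1BP or Cp190 is needed for chromatin to be open. M1BP knockdown cells received 20 μg of double-stranded RNA against M1BP, a zinc finger protein that recognises Motif 1, a core promoter element, and Cp190 knockdown cells received 12 μg against Cp190, a protein shared by several insulator complexes. Mock cells were the control and, per the study's methods, were transfected without RNA. In a comparison with mock, receiving double-stranded RNA at all thus cannot be told apart from the knockdown of the named gene. All groups were grown from 1 cell line and kept for 5 days after transfection, and each had 3 libraries. The study describes its ATAC-seq replicates as biological, and the labels do not say how the cultures were kept apart. The p-values measure the spread between these libraries, and the lists hold no measure of either protein.

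The Hox genes of the complex set the identity of the posterior thorax and the abdomen, in an order along the chromosome that matches the order of the segments. Long regulatory stretches lie between and within the genes. They hold enhancers, Polycomb response elements, through which Polycomb and Trithorax group proteins keep a gene off or on, and chromatin boundaries, which keep the regulatory domain of one segment from acting on the next. CTCF and Cp190 are known to bind several of these boundaries in flies, and the GAGA factor and Pho are known at Polycomb response elements. The annotation used gives no positions for boundaries or Polycomb response elements, so no region was given such a name.

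Sequences around the summits are printed first for the regions on which the results turn. All are from the plus strand of the dm6 assembly of RefSeq, and all 3 Hox genes are read from the minus strand. In the first set, capitals mark AGNNGGCGC, a short form of the CTCF motif, searched on both strands in 301 bp around the summit. Regions 15 (3R:16882692-16882750), 17 (3R:16919200-16919258) and 21 (3R:16969667-16969725) held a match.
Region 15: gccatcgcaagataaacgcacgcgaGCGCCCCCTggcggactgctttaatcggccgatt
Region 17: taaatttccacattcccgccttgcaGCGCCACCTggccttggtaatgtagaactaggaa
Region 21: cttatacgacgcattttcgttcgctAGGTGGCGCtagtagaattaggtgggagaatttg

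In the second set, capitals mark GAGAG, bound by the GAGA factor, and GCCAT, the core bound by Pho, on either strand with overlapping matches joined. Region 11 (3R:16798774-16798874) is shown because it fell most after Cp190 knockdown among the window regions that entered the limma test, and region 10 (3R:16764066-16764266) because its peak was the strongest. Region 12 (3R:16830159-16830359) lies at the abd-A start, and region 8 (3R:16702908-16703108) is the strong intronic region of Ubx.
Region 11: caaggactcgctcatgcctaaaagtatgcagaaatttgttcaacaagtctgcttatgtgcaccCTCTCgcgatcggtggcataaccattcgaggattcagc
Region 10: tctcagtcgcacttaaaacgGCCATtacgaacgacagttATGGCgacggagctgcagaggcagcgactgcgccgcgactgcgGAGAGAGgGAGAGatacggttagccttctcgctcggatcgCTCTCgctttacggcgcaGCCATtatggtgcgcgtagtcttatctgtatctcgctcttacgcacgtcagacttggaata
Region 12: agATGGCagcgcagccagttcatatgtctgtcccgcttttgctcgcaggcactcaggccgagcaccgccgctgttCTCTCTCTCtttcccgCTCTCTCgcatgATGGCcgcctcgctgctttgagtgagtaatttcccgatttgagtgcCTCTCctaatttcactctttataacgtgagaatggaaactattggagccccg
Region 8: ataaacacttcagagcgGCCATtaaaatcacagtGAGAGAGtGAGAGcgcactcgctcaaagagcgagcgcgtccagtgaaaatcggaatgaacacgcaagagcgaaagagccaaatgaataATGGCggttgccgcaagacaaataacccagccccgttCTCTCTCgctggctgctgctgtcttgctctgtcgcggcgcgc

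The lists ranged from 13464 to 18959 peaks, and background coverage recovered from them averaged 32.3 ± 2.86 fragments per base after M1BP knockdown, 43.3 ± 3.78 after Cp190 knockdown and 40.6 ± 1.03 in mock (SD, n = 3 each). The median fold enrichment of a list, the height of a summit over the local background of its library, was 3.46 ± 0.369 after M1BP knockdown, 2.62 ± 0.130 after Cp190 knockdown and 2.63 ± 0.0171 in mock. The M1BP knockdown libraries thus had fewer peaks and higher ratios throughout, and raw fold enrichments of this group are read against that level below.

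Open sites were few but strong between the Hox genes. Peaks in the span of the 3 genes numbered 3.80 ± 0.317 per 100 kb after M1BP knockdown, 3.38 ± 0.484 after Cp190 knockdown and 3.91 ± 0.183 in mock (SD, n = 3 each). The whole genome had 10.6 ± 0.734 after M1BP knockdown, 13.2 ± 0.25 after Cp190 knockdown and 13.2 ± 0.678 in mock, and the density between the genes was below that of the genome in 9 of 9 libraries. The flanks, which hold the start sites of ordinary cellular genes such as the chaperonin subunit gene CCT3, had 26.7 ± 2.89 peaks per 100 kb after M1BP knockdown, 33.3 ± 2.89 after Cp190 knockdown and 35 in each mock library. The other Hox cluster of the fly, the Antennapedia complex from lab to Antp (3R:6651427-7009228), had 8.38 ± 0.559 peaks per 100 kb after M1BP knockdown, 8.57 ± 0.427 after Cp190 knockdown and 10.7 ± 1.32 in mock, again more than the bithorax genes in 9 of 9 libraries. No test was made of these densities.

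**Figure D1:**
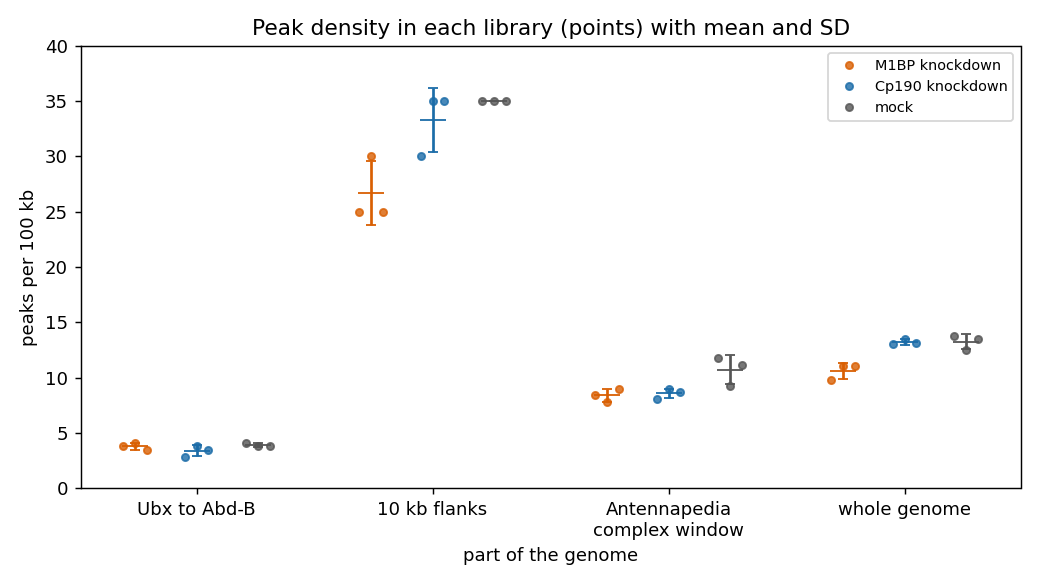
Peak density in peaks per 100 kb (y axis) in the span from Ubx to Abd-B, its 10 kb flanks, the Antennapedia complex window and the whole genome (x axis), with 1 point per library and the mean and SD of each group of 3. The Ubx to Abd-B span lies at 3.38 to 3.91 peaks per 100 kb in the group means, below the 3 other places.

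Of the 15 regions in the span, 8 had a peak in all 9 libraries and 12 in all 3 mock libraries. Those 12 regions had a median percentile of 88.4 in mock, where the percentile ranks a peak by its −log10 q among the peaks of its own list. The median was 59.3 over the 14095 regions of the genome with a peak in all mock libraries and 50.3 over the 6 such regions of the flanks. Neighbouring regions among the 12 were a median of 20.7 kb apart, with a range of 0.237 to 60.4 kb. Only 3 of the 15 regions reached within 100 bp of an annotated start, and the other 12 lay in introns, exons or between genes.

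**Figure D2:**
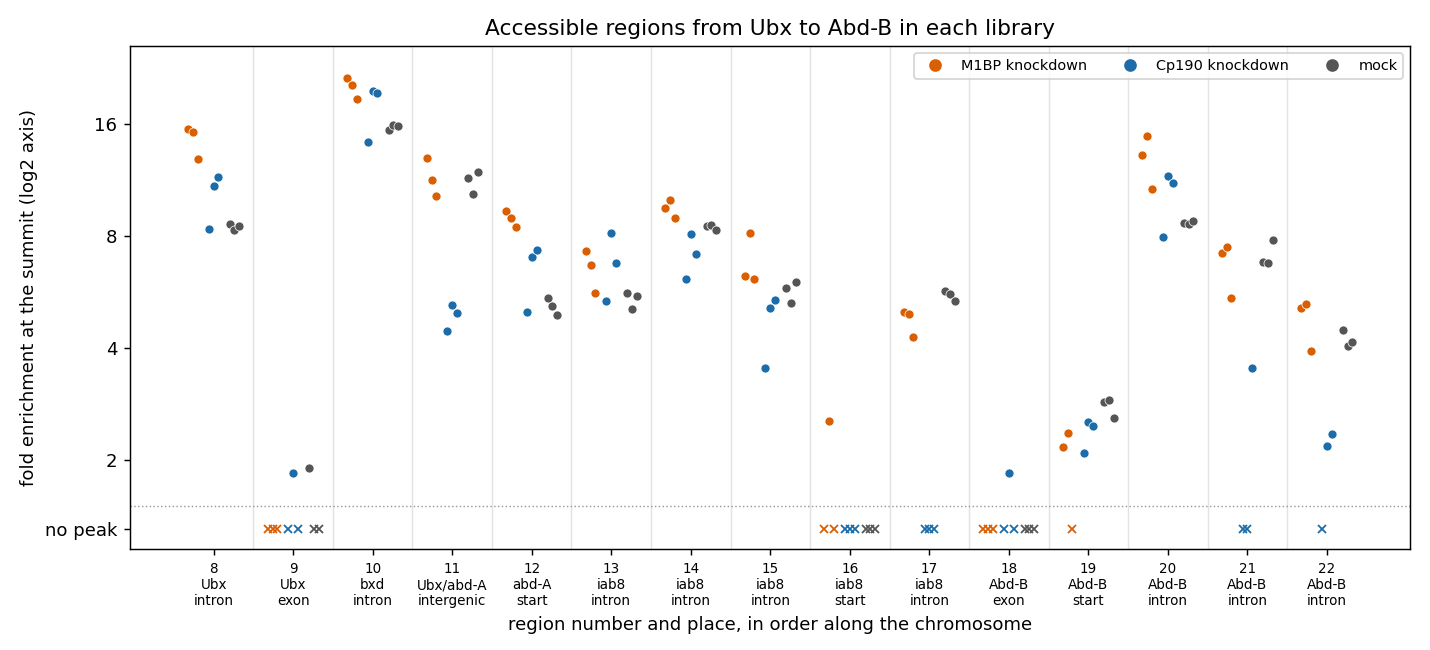
Fold enrichment at the summit (y axis, log2) of the 15 regions from Ubx to Abd-B (x axis, numbered along the chromosome), with 1 point per library. Crosses mark libraries without a peak. Region 10 is the highest in every group, region 11 is low in the 3 Cp190 knockdown libraries, and region 17 has no peak in any of them.

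The starts of the Hox genes differed in accessibility. Ubx, which specifies the posterior thorax, has 1 annotated start (3R:16734426), and no library of any group had a peak within 100 bp of it. Of the 3 starts of abd-A, which acts in the anterior abdomen, 1 had a peak, in 9 of 9 libraries. Of the 6 starts of Abd-B, which acts in the posterior abdomen, 1 (3R:16934242) had a peak within 100 bp, in 1 of 3 M1BP knockdown, 3 of 3 Cp190 knockdown and 3 of 3 mock libraries. Over the window, 35 of the 44 starts had a peak in no library, among them every start of lncRNA:bxd, lncRNA:iab4 and Glut3. Starts were counted for each gene, so a position shared by MSAmiP and lncRNA:iab8 was counted for both. The share over all starts of the genome was not counted, and by gene 52.5% of 17796 annotated genes had a peak at no start. An open start is not a measure of transcription, and RNA was not analysed here.

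At the abd-A start (region 12, 3R:16829994-16830361) the fold enrichment was 9.35, 8.97 and 8.45 after M1BP knockdown and 5.00, 7.03 and 7.34 after Cp190 knockdown, against 5.45, 5.18 and 4.91 in mock. All M1BP knockdown libraries lay above mock, and the Cp190 knockdown libraries overlapped it. After centring each library on its median, the M1BP knockdown was higher by 0.51 on the log2 scale (SE 0.077, limma adjusted p = 1.7e-05), so the increase went beyond the general rise of ratios in that group. The Cp190 knockdown differed by 0.25 (95% interval 0.088 to 0.41, limma adjusted p = 0.076), which missed the threshold of 0.05. Without Cp190 knockdown library 1 it was 0.35 (limma adjusted p = 0.0024).

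At the Abd-B start (region 19, 3R:16934190-16934928) the peak was weak. Its fold enrichment was 2.17 and 2.37 in 2 M1BP knockdown libraries, with no peak in the third, and 2.09, 2.53 and 2.47 after Cp190 knockdown, against 2.87, 2.90 and 2.60 in mock. Each knockdown library with a peak lay below the lowest mock library. Since 1 library lacked the peak, this region was not in the limma test.

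In the Ubx gene the open region was intronic (region 8, 3R:16702768-16703251). Its fold enrichment was 15.6, 15.2 and 12.9 after M1BP knockdown and 8.36, 10.9 and 11.5 after Cp190 knockdown, against 8.61, 8.31 and 8.50 in mock. The M1BP knockdown libraries were all above mock, by 0.50 on the log2 scale (SE 0.068, limma adjusted p = 5.5e-06), while the Cp190 knockdown libraries overlapped mock (log2 difference 0.21, 95% interval 0.072 to 0.36, limma adjusted p = 0.090). The coding exon near the Ubx start held a weak region (region 9, 3R:16732673-16733013, 1542 bp from the start) in 1 Cp190 knockdown and 1 mock library, with fold enrichments of 1.85 in the Cp190 knockdown library and 1.91 in the mock library.

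The strongest region of the complex lay in an intron of lncRNA:bxd, the noncoding gene upstream of Ubx (region 10, 3R:16763614-16764373). It stood at percentile 99.7 or above in 9 of 9 libraries, among the most significant peaks of every list. Its fold enrichment was 21.4, 20.4 and 18.7 after M1BP knockdown and 14.3, 19.7 and 19.5 after Cp190 knockdown, against 15.4, 15.9 and 15.9 in mock. Neither knockdown passed the test after centring, with log2 differences of 0.080 (95% interval −0.072 to 0.23) after M1BP knockdown and 0.11 (95% interval −0.038 to 0.26) after Cp190 knockdown.

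The change that stood out after Cp190 knockdown was in the intergenic stretch between Ubx and abd-A (region 11, 3R:16798484-16798994), 1776 bp from the nearest annotated start, that of lncRNA:CR45750. Its fold enrichment was 4.43, 5.21 and 4.97 after Cp190 knockdown, against 11.5, 10.4 and 11.9 in mock. The number of fragments over the summit was 209, 236 and 198 after Cp190 knockdown, against 475, 422 and 507 in mock. The groups were far apart on both measures, and the percentile was 72.0 to 76.4 after Cp190 knockdown, against 98.8 to 99.5 in mock. The log2 change was −1.26 (SE 0.066, limma adjusted p = 1.8e-10), a level of 41.8% of mock, which ranked as number 4 from the lowest of 9033 regions tested. The region remained open, with a peak in 9 of 9 libraries. Over 13 alternatives the log2 change ranged from −1.34 to −1.10.

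After M1BP knockdown the same region had fold enrichments of 12.96, 11.3 and 10.2, against 11.5, 10.4 and 11.9 in mock, and the groups overlapped. The centred log2 change was −0.25 (SE 0.066, limma adjusted p = 0.0036), and without centring it was 0.027 (limma adjusted p = 0.86), so its direction depends on the scaling. The knockdowns share their mock libraries, and the difference between them was not tested.

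Between abd-A and Abd-B, regions 13, 14 and 15 lay in introns of lncRNA:iab8, a long noncoding gene transcribed across this stretch, and of the overlapping gene MSAmiP. Region 13 (3R:16847202-16847654) had fold enrichments of 7.32, 6.69 and 5.64 after M1BP knockdown and 5.34, 8.16 and 6.79 after Cp190 knockdown, against 5.62, 5.09 and 5.52 in mock, and passed the test in neither knockdown. Region 14 (3R:16869373-16869658) had 6.12, 8.13 and 7.19 after Cp190 knockdown, against 8.51, 8.55 and 8.33 in mock. All Cp190 knockdown libraries lay below mock, by a log2 change of −0.30 (SE 0.069, limma adjusted p = 0.0086), and the call was lost without Cp190 knockdown library 3 (limma adjusted p = 0.076) or without mock library 2 (limma adjusted p = 0.069), and also without centring (limma adjusted p = 0.43).

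Region 15 (3R:16882435-16882848), which carries a CTCF-type match 138 bp from its summit, had 3.53, 5.12 and 5.39 after Cp190 knockdown, against 5.79, 5.28 and 6.01 in mock. The ranges overlapped, and the log2 difference of −0.36 (95% interval −0.57 to −0.14) did not pass the threshold (limma adjusted p = 0.053). It passed under 6 of 13 alternatives, with limma adjusted p of 0.0062 to 0.25 over them and a lower value in each, so whether it is called depends on the setting. After M1BP knockdown region 14 had 9.51, 9.99 and 8.98 and region 15 had 6.23, 8.16 and 6.13. These ratios were above mock only as far as those of the whole list, and the centred log2 differences were −0.11 and −0.019 with limma adjusted p = 0.18 and 0.89.

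Region 17 (3R:16919027-16919352), in an intron of lncRNA:iab8 3938 bp from its nearest start, was the only region of the window lost in a knockdown, where 4.24% of the regions open in all mock libraries were lost genome-wide after Cp190 knockdown. It had no peak in any Cp190 knockdown library, against fold enrichments of 5.69, 5.58 and 5.36 and percentiles of 84.4, 84.0 and 82.2 in mock. The weakest peaks that the Cp190 knockdown lists hold at background coverage had median fold enrichments of 1.75 to 1.82, well under the mock values. The M1BP knockdown kept the peak in 3 of 3 libraries, with fold enrichments of 4.99, 4.95 and 4.28 that all lay below mock and percentiles of 56.0, 61.9 and 61.2.

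The far end of Abd-B held a pair of intronic regions 0.237 kb apart. Region 21 (3R:16969528-16969828) had no peak in 2 Cp190 knockdown libraries and a fold enrichment of 3.54 in the third, against 6.83, 6.78 and 7.82 in mock. Region 22 (3R:16970066-16970554) had no peak in 1 Cp190 knockdown library and 2.18 and 2.35 in the other two, against 4.46, 4.05 and 4.17 in mock. Every Cp190 knockdown library was thus below mock at both, or had no peak. After M1BP knockdown both regions had a peak in 3 of 3 libraries, with fold enrichments of 7.22, 7.47 and 5.44 at region 21 and 5.12, 5.25 and 3.92 at region 22, overlapping mock.

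By contrast, the strong intronic region in the middle of Abd-B (region 20) had 13.2, 14.9 and 10.7 after M1BP knockdown and 7.96, 11.7 and 11.1 after Cp190 knockdown, against 8.66, 8.62 and 8.78 in mock. It was higher after M1BP knockdown by 0.29 on the log2 scale (SE 0.089, limma adjusted p = 0.0089), and the call was lost without M1BP knockdown library 2 (limma adjusted p = 0.068) or with quantile normalization (limma adjusted p = 0.083). The Cp190 knockdown overlapped mock (log2 difference 0.17, 95% interval −0.019 to 0.35, limma adjusted p = 0.44).

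**Figure D3:**
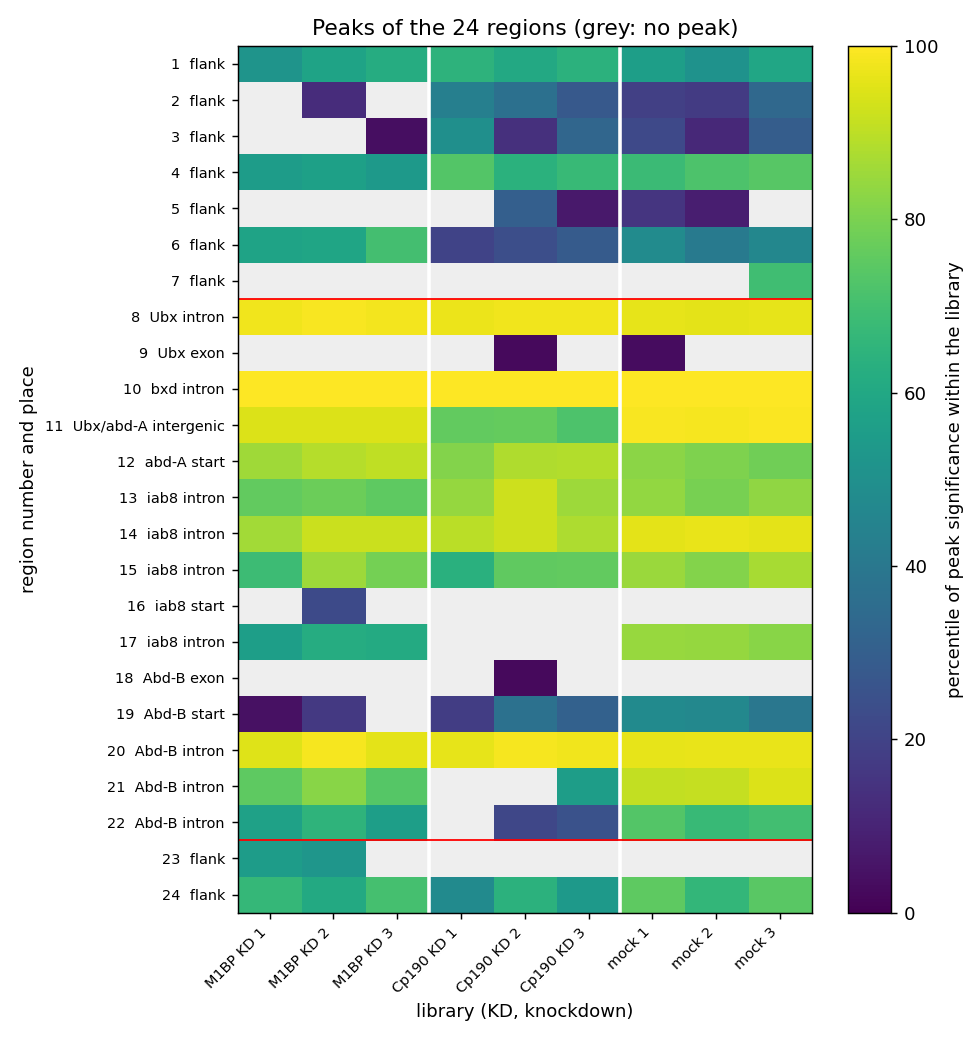
Percentile of each peak among the peaks of its own list (colour, 0 to 100) for the 24 regions (rows, from the Ubx flank to the Abd-B flank) in the 9 libraries (columns). Grey cells have no peak, and red lines bound the span of the 3 genes. Regions 17, 21 and 22 have grey cells after Cp190 knockdown and none in mock.

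Counted over the window, 1 of the 18 regions with a peak in all mock libraries was lost after Cp190 knockdown, where 4.24% of such regions were lost over the genome. After M1BP knockdown 0 of 18 were lost, against 15.0% over the genome. Of the 3 window regions with no peak in mock, 0 were gained in either knockdown, against 5.54% of such regions over the genome after Cp190 knockdown and 16.1% after M1BP knockdown. Of the 12 regions with a peak in every library, the Cp190 knockdown had 3 lower and 0 higher by limma at an adjusted p below 0.05, against 3.51% lower and 1.24% higher of 9033 regions. At an unadjusted limma p below 0.05 it had 5 lower and 3 higher, and the share of all regions at that threshold was not counted. The M1BP knockdown had 2 lower and 5 higher of 12, against 30.3% lower and 28.9% higher over the genome. The centring sets that balance: without it the median region of the M1BP knockdown moved by 0.27 on the log2 scale, and lower regions made up 13.5% of all calls, against 51.2% with it. Single libraries moved the counts: without Cp190 knockdown library 3, 2 regions were lost after Cp190 knockdown, and without Cp190 knockdown library 1, 3 were higher. Without M1BP knockdown library 2 or 3, or without mock library 3, 1 region was lost after M1BP knockdown. Without M1BP knockdown library 3, 1 region was gained after M1BP knockdown, and without mock library 3 only 1 was lower. Without any 1 of the M1BP knockdown or mock libraries, 4 rather than 5 were higher after M1BP knockdown. Without mock library 2, 2 rather than 3 were lower after Cp190 knockdown. With so few regions, these counts are a description of the window and not a test of it.

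The 4 regions of the flanks in the limma test were all at gene starts. After M1BP knockdown CCT3 (region 1, log2 change 0.19) and modSP, a serine protease of the Toll pathway (region 6, log2 change 0.42), were higher, with limma adjusted p = 0.048 and 0.00044. The CCT3 call was lost without any 1 of M1BP knockdown libraries 1 and 3 and the 3 mock libraries (limma adjusted p of 0.060 to 0.17). CG14907 (region 4) was lower by a log2 change of −0.26 (limma adjusted p = 0.012, and 0.051 without mock library 3), and without centring the change was 0.016 (limma adjusted p = 0.90). AhcyL2 (region 24), which encodes a protein like the enzyme that breaks down S-adenosylhomocysteine, was lower after Cp190 knockdown by a log2 change of −0.43 (SE 0.091, limma adjusted p = 0.0051, and 0.0502 without centring) and did not pass the test after M1BP knockdown (log2 difference −0.023).

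**Figure D4:**
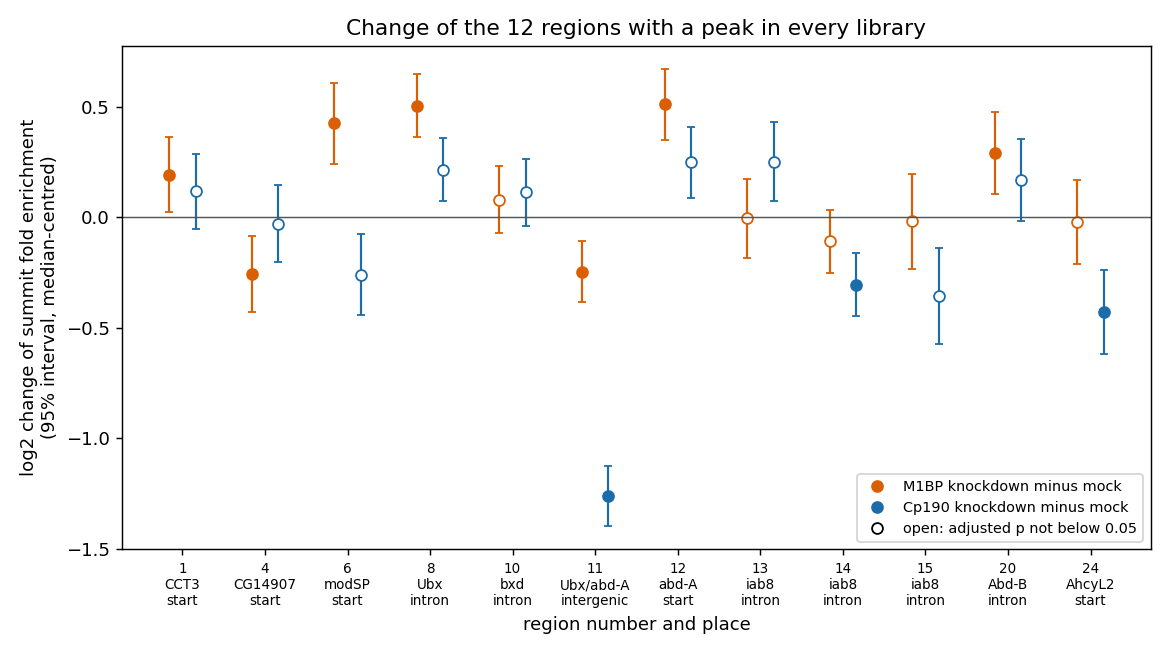
Log2 change of the centred summit fold enrichment (y axis, with 95% intervals) of the 12 window regions with a peak in every library (x axis), for the M1BP knockdown and the Cp190 knockdown against mock. Filled points passed a limma adjusted p below 0.05. Region 11 after Cp190 knockdown, at −1.26, lies far below the other points.

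The remaining regions of the window were weak or seen in few libraries. In the flanks, regions 2 and 3, in CCT3 and at the start of Mettl4, each had a peak in 1 of 3 M1BP knockdown, 3 of 3 Cp190 knockdown and 3 of 3 mock libraries, with fold enrichments of 1.68 to 2.15 over all of them. Region 5, in an exon of modSP, had a peak in 0 M1BP knockdown, 2 Cp190 knockdown and 2 mock libraries. Region 7 had a peak only in mock library 3, and region 23 only in 2 M1BP knockdown libraries. In the span, region 16 at a start of lncRNA:iab8 had a peak only in M1BP knockdown library 2 (fold enrichment 2.55), and region 18 in an Abd-B exon only in Cp190 knockdown library 2 (fold enrichment 1.85).

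Totals over the window were tested for each knockdown, and none could pass the threshold in this design. The peak count was 17, 19 and 16 after M1BP knockdown and 15, 19 and 18 after Cp190 knockdown, against 20, 19 and 19 in mock (exact two-sided permutation p = 0.3 for each knockdown). The covered length was 7151 ± 527 bp after M1BP knockdown and 7682 ± 507 bp after Cp190 knockdown, against 8359 ± 400 bp in mock (SD, n = 3 each, exact permutation p = 0.1 and 0.2). Per 1000 peaks of a list, the window held 1.19 ± 0.119 after M1BP knockdown and 0.950 ± 0.102 after Cp190 knockdown, against 1.06 ± 0.0419 in mock (exact permutation p = 0.3 and 0.1). The smallest p this test allows with 3 libraries against 3 is 0.1. The M1BP knockdown libraries did not overlap mock in covered length. Their lists were also shorter, at 14635 ± 1014 peaks against 18237 ± 937 in mock, and covered length was not counted over the genome. The Cp190 knockdown libraries did not overlap mock in the share per 1000 peaks, by a small margin (highest 1.020, against a lowest of 1.023 in mock).

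Motifs were counted in 301 bp around the summits, as matches of letters and not as binding sites. AGNNGGCGC was in 3 of the 12 span regions with a peak in all mock libraries (regions 15, 17 and 21, with matches 138 bp and 36 bp after and 17 bp before the summit), and in 5.61% of such regions over the genome. Searched over their whole length, 4 of the 15 span regions held it, the fourth being the Abd-B start (region 19). The share over the genome was not counted for whole regions. After Cp190 knockdown region 17 was lost, region 21 had a peak in 1 of 3 libraries, region 15 was called lower only under some settings, and region 19 kept its peak in 3 of 3 libraries. Regions 11, 14 and 22, all lower or missing in some Cp190 knockdown library, held no match. Over the genome, 7.34% of the regions with the motif and a peak in all mock libraries were lost after Cp190 knockdown, beside 4.24% of all such regions, and 8.66% of tested regions with it were lower, beside 3.51%.

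GAGAG was in 10 of the 12 span regions and 41.7% of such regions over the genome, and GCCAT in 10 of the 12 and 49.2%. Region 8 held 7 GAGAG matches, regions 10 and 12 held 6 each, and regions 10 and 20 held 5 GCCAT matches each. Numbers of matches per region were not set against the genome. Overlapping matches were each counted, whereas the capitals in the second set of sequences above join them. Those sequences are shorter than 301 bp, and those of regions 8 and 10 leave out some matches, while those of regions 11 and 12 hold all of theirs. GGTCACACT, the core of Motif 1, was in 0 of the 15 span regions and in 2.02% of all regions. It was in none of the 10 Hox promoters (250 bases before a start to 49 after it) and in 4.45% of all promoters. With shares so low, a count of 0 among so few does not set them apart. The study's discussion describes the Abd-B promoter as containing Motif 1 and the Ubx promoter as lacking it. The study scored promoters against the full motif over a wider stretch, so the searches are unlike. The median GC content around the summits was 50.3% in the 12 span regions and 49.5% over all regions.

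Open starts were also counted for lists of genes whose products act on the complex. Of the 17796 genes annotated on the main chromosomes, 34.1% had a peak within 100 bp of a start in 9 of 9 libraries and 52.5% in none, and of the 13968 protein-coding genes 39.9% and 46.1% did. All 18 annotated Polycomb group genes, 12 of 12 Trithorax group genes and all 3 Hox cofactor genes had a peak within 100 bp of a start in 9 of 9 libraries. Of 14 boundary factor genes, 11 had one in all libraries, Elba2 in some, and Elba1 and Elba3 in none. The lists also named calypso (Polycomb group), CLAMP (boundary factors) and nos (other tissues, below). These were not found under those names in the annotation and were not counted. Of 8 early regulators of the complex, ftz, gt, hb and tll had none in any library, Kr and kni had one in some, and 2 had one in all. All 5 Hox genes on the list of the Antennapedia complex had an open start in 9 of 9 libraries, unlike Ubx and Abd-B. As a check of the cell line, which is generally held to resemble blood cells, 5 of 10 blood cell markers had an open start in every library, while He, NimC1, Col4a1 and Sr-CI had none in any. Of 9 markers of other tissues, 2 had an open start in every library, the neuronal gene elav and the glial gene repo, and grh and vas had one in some. The muscle genes Mhc and Act88F, the neuronal gene nSyb and the fat body genes Fbp1 and Lsp2 had none. The neuronal markers thus went both ways.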

How the data were processed

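ATAC-seq was done in 9 libraries of Kc167 cells, 3 for each of M1BP knockdown, Cp190 knockdown and mock, grouped by the labels. Per the study's methods and the labels, the authors trimmed reads with cutadapt 1.8.1, mapped pairs to dm6 with Bowtie2 2.3.5, discarded mitochondrial reads (SAMtools 1.9) and duplicates (Picard), and called peaks in each library by itself with MACS2 2.2.5 on whole fragments, with no control library. Whether cut positions were shifted for Tn5 was not given in the sources used here. In the deposited lists the authors' peak caller gave the fold enrichment (a ratio) of each summit over local background. Its significance stands in further deposited columns as −log10 p and −log10 q, with a lowest −log10 q of 4.00. The deposited score column repeats −log10 q on another scale and was not used.

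Depth was not given directly. The number of fragments over each summit was recovered from fold enrichment and −log10 p and was whole for 100% of 153300 peaks (tolerance 0.01 on −log10 p). The labels name no molecular identifiers, so such numbers cover counting error only. Peaks overlapping by 1 bp or more were joined into regions. Lost regions had a peak in 3 of 3 mock and 0 knockdown libraries, and gained regions the reverse. The log2 of the highest fold enrichment per region was centred on the median of each library and tested with limma 3.58.1 in R 4.3.3 (trended variances, all 9 libraries in 1 fit) on the 9033 regions with a peak in all libraries, with Benjamini-Hochberg adjustment over all of them. Such a filter leaves out regions that were lost. Window totals were compared between groups with exact permutation tests (two-sided). Starts came from Ensembl release 115 and sequence from RefSeq, both dm6. The sequence of 1 region is not reported here. Other work used python 3.11.15, numpy 2.4.6, pandas 2.3.3, scipy 1.17.1 and matplotlib 3.10.9, and the code was tested on simulated data. The text names the Hox genes, the other genes with an open start in the window, every region that was lost, gained or past the limma threshold, and the 10 regions with the highest mock percentile. The remaining regions and the motif counts beyond these were chosen after their values were seen. Members, gene lists, motifs and tests were chosen with earlier results of these data known. Alternatives were stricter peak thresholds, equal list lengths, no flanks, other rules for shared regions, other scalings, a replicate block and leaving out each library.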

Additional observations from a re-analysis of the deposited data

How the results depend on the processing

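Few regions carried each count. Peak presence can depend on the depth of a library, which was not given, and the recovered background coverage was lowest after M1BP knockdown. Whether depth moved the counts was not tested. At a −log10 q of at least 10, 1 window region was lost after M1BP knockdown and 3 were higher, beside 2356 higher of 8023 regions over the genome. With presence in 2 of 3 libraries sufficient, 1 was lost and 1 gained. After Cp190 knockdown 2 were lost at a −log10 q of at least 20, with equal list lengths, or when a peak had to cover 50% of a region. Genome-wide shares of lost or gained regions were not counted under these settings. Without centring, 0 regions were lower after M1BP knockdown, where region 4 changed by 0.016 and region 11 by 0.027 on the log2 scale, and 1 was lower after Cp190 knockdown. Over the genome 744 of 9033 regions were then lower after M1BP knockdown and 233 after Cp190 knockdown. With recovered fragments in place of fold enrichment, 0 window regions were lower after M1BP knockdown and 5 after Cp190 knockdown. Over the genome 2695 and 429 of 9033 regions were lower at that setting. The cause of these shifts was not tested.

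Leaving out 1 library at a time gave 0 to 1 lost and 0 to 1 gained regions after M1BP knockdown, 1 to 2 lost regions after Cp190 knockdown, 1 to 2 lower regions after M1BP knockdown and 0 to 3 higher regions after Cp190 knockdown. It also gave 4 higher regions each time after M1BP knockdown and 2 to 3 lower regions after Cp190 knockdown. The log2 change at the abd-A start after Cp190 knockdown ranged from 0.19 to 0.35, and after M1BP knockdown from 0.47 to 0.53. The window totals could not pass the threshold under any setting, and the M1BP knockdown difference in peak count was 0 at a −log10 q of at least 20 and with equal list lengths.

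Same-numbered libraries deviated together no more than others (correlations of −0.17 to 0.11, and −0.13 to 0.14 for other numbers). With 3 libraries in each group this cannot exclude that the numbers paired the samples. With the replicate number as a block, region 1 was no longer called after M1BP knockdown (limma adjusted p = 0.053), region 15 was called after Cp190 knockdown (log2 change −0.36, limma adjusted p = 0.026), as it was under 5 other alternatives, and region 11 stayed at −1.26. For the window totals the block was an exact sign-flip permutation test, which cannot go below p = 0.25.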
